A study of Mus musculus with 4 samples.

Results

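The 200 reads described here are the most frequent sequences of 28 to 36 nt in small RNA libraries of mouse fetal liver that matched no annotated miRNA hairpin, also not after removal of 1 to 3 nt from their 3′ end. They were chosen by their count summed over the libraries, out of 422985 distinct sequences of this kind, so their abundance is a description and carries no test. The last read kept had a summed count of 249 and the next had 246. Small RNA was sequenced from whole fetal liver of wildtype mice and of mice with catalytically dead Ago2 (Ago2 CD), with 2 libraries per genotype that the series describes as biological replicates. The labels give the same treatment for both genotypes: livers were frozen on dissection and total RNA was taken up in Trizol. Strain, embryonic age, allele copy number and pooling of embryos are not stated by the labels, nor whether each library came from its own animal. The spread between 2 libraries of a genotype therefore measures these libraries only. Catalytically dead Ago2 leaves the transcript in place, so the genotype itself could not be read from these sequences.

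Fragments of this length usually come from RNAs other than miRNAs. A tRNA cut in its anticodon loop gives a 5′ fragment and a 3′ fragment, and such 5′ fragments are abundant in blood-forming tissue and rise when cells are stressed. Y RNAs, small non-coding RNAs bound by Ro60, are cut in a similar way. Mitochondria encode their own set of tRNAs. miR-451a, an erythroid miRNA, is made without Dicer: Ago2 cuts its short hairpin itself, and the product is then trimmed at the 3′ end, so wildtype erythroid cells hold miR-451a molecules of many lengths. miR-144 lies in the same cluster and is cut by Dicer.

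The following reads carry the results, and each is written 5′ to 3′ as DNA. The first set holds the most frequent unedited read of several tRNA 5′ ends, with the 18 letters that define a shared 5′ end in capitals.
Gly-GCC, rank 1: GCATTGGTGGTTCAGTGGtagaattctcg
Val-CAC, rank 3: GTTTCCGTAGTGTAGTGGttatcacgtt
Gly-CCC, rank 30: GCGCCGCTGGTGTAGTGGtatcatgcaaga
Gly-CCC, second 5′ end, rank 35: GCATTGGTAGTTCAATGGtagaattctcgc
Asp-GTC, rank 32: TCCTCGTTAGTATAGTGGtgagtatccccg
Met-CAT, rank 36: AGCAGAGTGGCGCAGCGGaagcgtgctgg
Gly-TCC, rank 96: GCGTTGGTGGTATAGTGGtgagcatagc
mt-Tm, the mitochondrial tRNA for methionine, rank 8: AGTAAGGTCAGCTAATTAagctatcgggc

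A second set shows tRNA reads that differ from the unedited sequence by 1 letter. Capitals mark the changed letter, or the letters on either side of a missing one.
Gly-GCC with T5G, rank 17: gcatGggtggttcagtggtagaattctcgc
Met-CAT with G9T, rank 89: agcagagtTgcgcagcggaagcgtgctgg
Val-CAC with G26T, rank 69: gtttccgtagtgtagtggttatcacTttcg
mt-Tv with A9T, rank 133: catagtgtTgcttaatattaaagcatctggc
mt-Tg with A9 missing, rank 125: actccctTGtataattaatataactgact
mt-Ta with A9 missing, rank 193: gaggtctTGcttaattaaagcaattgatt

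The last set compares the unchanged 29-nt miR-451a sequence, which matches the hairpin and is no member, with 4 members that escaped the hairpin match through extra or changed letters (capitals), and adds 1 read in which miR-144 (capitals) follows letters of the 5′ sequencing adapter.
miR-451a, unchanged: aaaccgttaccattactgagtttagtaat
miR-451a with 1 extra letter, rank 13: Caaaccgttaccattactgagtttagtaat
miR-451a with 2 extra letters, rank 18: TCaaaccgttaccattactgagtttagt
miR-451a with A19T, rank 21: aaaccgttaccattactgTgtttagtaat
miR-451a with A1T, rank 25: Taaccgttaccattactgagtttagtaat
adapter letters and miR-144, rank 29: gacgatcgtTACAGTATAGATGATGTACT

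The libraries differed in a way the genotype does not explain. The longest read was 50 nt in wildtype 1 and Ago2 CD 2 and 46 nt in wildtype 2 and Ago2 CD 1, so that each kind held 1 library of each genotype. Values are therefore also compared within these pairs. Where 4 values of a read are given in a row, their order is wildtype 1, wildtype 2, Ago2 CD 1 and Ago2 CD 2. The table of all reads of 28 to 36 nt without a hairpin match held 133022 reads in wildtype 1, 205877 in wildtype 2, 444690 in Ago2 CD 1 and 147407 in Ago2 CD 2, which was 0.840% to 2.03% of a library. The reads carry no molecular identifiers, so the intervals and floors below cover counting error only. Reads of the mir-144 and mir-486 hairpins, which are erythroid, reached 176002 to 239528 reads per 1000000 (RPM) library reads outside the mir-451a hairpin, and were higher in Ago2 CD within both pairs. Those of the hepatocyte mir-122 and mir-192 hairpins stood at 15169 and 54097 RPM in wildtype 1 and 2, against 66352 and 21044 RPM in Ago2 CD 1 and 2, higher in Ago2 CD within both pairs and in the 46-nt libraries, as the nuclear tRNA share below was. Neuronal mir-9 and mir-124 hairpin reads were at 265 and 296 RPM on this scale in the 46-nt libraries and at 8.65 and 10.9 in the 50-nt libraries. Muscle mir-1a, mir-133a and mir-206 reads reached 463 RPM in wildtype 1 and 12.2 to 31.3 in the other libraries. Leukocyte mir-142 and mir-223 hairpin reads stood at 46047 and 83418 RPM in wildtype 1 and 2. In Ago2 CD 1 and 2 they stood at 76736 and 39138 RPM, lower in Ago2 CD within both pairs. The part of these in the results below was not tested.

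Nuclear tRNA 5′ fragments were the largest group, with 81 of the 200 reads (40.5%). They included reads from Val-CAC (22 reads), Gly-GCC (20), Gly-CCC (15), initiator Met-CAT (6), Asp-GTC (2) and Gly-TCC (1), and all 81 lay at or near the tRNA's 5′ end. In 41 the letters matched exactly and in 40 they carried edits. Whole sequences were at hand for 10 of 408 nuclear tRNA genes, and other references ran from a read to about the anticodon. Inner and 3′ fragments of other tRNAs could therefore hardly be named. The reads stop before the whole anticodon, so tRNAs with the same first letters cannot be told apart by them. A further 68 reads (34%) were miR-451a with changed or extra letters, 31 were adapter letters before a miRNA, 12 were mitochondrial tRNA fragments, 3 were adapter letters alone, 3 matched other transcripts, 1 held other letters before miR-144 and 1 had no match. By the matching that had been planned, without the classes added after the reads were seen, 65 reads matched a nuclear tRNA, 9 a mitochondrial tRNA and 123 nothing. No Y RNA fragment was among the 200. Over the whole table, reads matching Rny1 exactly numbered 23, 37, 116 and 84 in wildtype 1, wildtype 2, Ago2 CD 1 and Ago2 CD 2, and those matching Rny3 numbered 8, 23, 82 and 21.

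The 200 reads began at 108 distinct 5′ ends. At least 5 members shared the same end in 7 cases, which together held 56 members, and 75 ends had 1 member. The Val-CAC end held 20 members of 28 to 33 nt, which differed from each other by 3′ trimming or by edits. Reads of 1 end therefore share their RNA of origin and are not independent of each other.

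Nuclear tRNA 5′ fragments took a higher share of the table in Ago2 CD than in wildtype within both kinds of library, while both 46-nt libraries lay above both 50-nt libraries. They made up 2.66% of the table in wildtype 1 (95% Wilson interval 2.58% to 2.75%), 13.4% in wildtype 2 (13.2% to 13.5%), 32.1% in Ago2 CD 1 (32.0% to 32.2%) and 4.79% in Ago2 CD 2 (4.68% to 4.90%). The share averaged 8.01% ± 7.56 (SD, n = 2) for wildtype, against 18.4% ± 19.3 (SD, n = 2) for Ago2 CD, and the groups overlapped. Ago2 CD exceeded wildtype 1.80 times in the 50-nt pair and 2.40 times in the 46-nt pair. Ago2 CD 1 held 142710 of the 180820 reads of the 81 members and thus weighed most in their choice. With 200 reads chosen again without Ago2 CD 1, of which 132 were among the 200 here, the difference turned to -3.06 percentage points. The table also holds miR-451a reads, which were lower in Ago2 CD, so a second scale with another base is given. That base is all library reads except those matching the mir-451a hairpin. The 68 miR-451a reads with changed or extra letters did not match it and stay in the base. Scaled to library reads outside the mir-451a hairpin, the 81 reads together were at 374 and 2992 RPM in wildtype 1 and 2, against 6538 and 465 in Ago2 CD 1 and 2. Of the 81 reads, 40 were higher in Ago2 CD in both pairs on this scale, 3 were lower in both, 15 were higher in the 46-nt pair alone, 8 were higher in the 50-nt pair alone and 15 were at 0 in both 50-nt libraries. In bulk tissue, fewer cells of a type and less RNA per cell cannot be told apart.

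Across all reads of the table, no difference between the genotypes passed the threshold of 0.05 after Benjamini-Hochberg adjustment in edgeR's quasi-likelihood test with genotype alone. Of 828 sequences with enough reads, 187 of them members, 0 (0%) were called higher and 0 (0%) lower, and the smallest adjusted p was 0.216. At an unadjusted p under 0.05, 0 were higher and 171 (20.7%) lower, 57 of the latter members. DESeq2 called 0 higher and 172 (20.8%) lower, 62 of them members. With the longest read length as a term, edgeR called 7 reads (0.845%) higher, all 7 members, and 205 (24.8%) lower, of which 62 were members. The 7 were 5 nuclear and 2 mitochondrial tRNA reads, groups chosen mostly through counts in Ago2 CD 1. That all 7 were members is therefore not a separate result. Both Ago2 CD libraries lay above both wildtype libraries for 51 reads (6.16%) and below for 208 (25.1%). Among tested members, 6 of 76 nuclear tRNA reads and 7 of 11 mitochondrial tRNA reads lay above, and 62 of 62 miR-451a reads lay below. The median log2 fold change over all 828 reads was 0.08, over the nuclear tRNA members 1.65, over the mitochondrial tRNA members 1.93 and over the miR-451a members -10.82. Another scaling moved the median of all reads to -0.41 with DESeq2's size factors, 0.64 with the library size of reads of 18 nt or more and 0.51 with limma voom, so a fold change below these sizes has no fixed direction.

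The Gly-GCC fragments, from a glycine tRNA whose 5′ fragments are among the best known, differed by kind of library. The 29-nt read of rank 1 was counted 0, 3545, 10770 and 0 times in wildtype 1, wildtype 2, Ago2 CD 1 and Ago2 CD 2. The floor of 3 counts in a library at 0 was 22.6 RPM of the table in wildtype 1 and 20.4 in Ago2 CD 2, against 17219 in wildtype 2 and 24219 in Ago2 CD 1. It was thus present in both 46-nt libraries and in neither 50-nt library, whatever the genotype. Its fitted log2 fold change was 0.09 ± 3.67 (SE; edgeR adjusted p = 1.00), and the sign turned under DESeq2, limma voom and a stricter filter on low counts. The 30-nt read of rank 4 was counted 36, 797, 11845 and 117 times, a log2 fold change of 2.37 ± 2.80 (edgeR adjusted p = 1.00). The 31-nt read of rank 6 was counted 34, 450, 10923 and 81 times. For ranks 4 and 6 the Ago2 CD library was the higher one in both pairs, although wildtype 2 lay above Ago2 CD 2. With the longest read length as a term, the fold change of rank 6 was 2.44 ± 0.96 (edgeR adjusted p = 0.043).

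The 3′ ends of the Gly-GCC reads touch the trimming of adapters. The last letters of the 29-nt read resemble the first letters of the 3′ adapter, and 14 members had such an end, of at least 3 letters with at most 1 mismatch per 10. All 14 were at 0 in both 50-nt libraries and none in both 46-nt libraries. Among the 186 other members, 32 were at 0 in both 50-nt libraries, 30 of these being adapter letters before a miRNA. Among nuclear and mitochondrial tRNA reads, 13 of 13 with an adapter-like end were at 0 in the 50-nt libraries, against 2 of 80 without one. Rank 16 (28-nt Gly-GCC), rank 36 (29-nt Met-CAT) and rank 41 (29-nt Gly-CCC) were of this kind, with 0 reads in the 50-nt libraries and 2379, 1157 and 922 in Ago2 CD 1. The part of adapter removal in these zeros was not tested.

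The most frequent Val-CAC read varied less between libraries than that of Gly-GCC. A RefSeq Val-CAC gene with these letters, n-TVcac9, lies at chr13:23446142-23446214 on the minus strand of GRCm38. Other genes, also some with another anticodon, may carry the same letters, so the reads cannot be placed at 1 locus. The 28-nt read of rank 3 stood at 7548 and 16719 RPM of the table in wildtype 1 and 2, against 14023 and 14897 in Ago2 CD 1 and 2, so that both Ago2 CD libraries lay between the wildtype libraries. Its log2 fold change was 0.32 ± 2.25 (edgeR adjusted p = 1.00), with a sign that turned under other scalings. The 30-nt read of rank 10 was counted 9, 483, 7159 and 125 times, higher in Ago2 CD within both pairs. With the longest read length as a term, its log2 fold change was 3.24 ± 1.00 (edgeR adjusted p = 0.0047).

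The less frequent tRNAs, summed over their members, were highest in Ago2 CD 1 and lowest in wildtype 1, apart from Gly-TCC. Gly-CCC members, 15 in all, summed to 50, 1739, 9610 and 204 reads, and 1 gene with Gly-CCC letters is n-TGccc7 at chr17:25875088-25875158 on the plus strand of GRCm38. Met-CAT members summed to 62, 533, 3935 and 202 reads, and Asp-GTC members to 79, 193, 1597 and 149. The single Gly-TCC read of rank 96 was counted 65, 56, 127 and 248 times and was thus highest in Ago2 CD 2. Among the tRNAs reported here, Ago2 CD was above wildtype in both pairs by share of the table for Gly-GCC (2.17 times in the 50-nt pair and 2.77 times in the 46-nt pair), Gly-CCC (3.68 and 2.56), Met-CAT (2.94 and 3.42), Val-CAC (2.45 and 2.09), Asp-GTC (1.70 and 3.83) and Gly-TCC (3.44 and 1.05). Scaled to library reads outside the mir-451a hairpin, Gly-TCC was lower in Ago2 CD within the 46-nt pair, at 6.09 RPM in wildtype 2 and 5.82 RPM in Ago2 CD 1. Over all exact reads of the table, Glu-TTC had 77, 22, 112 and 143 reads and Lys-CTT 8, 73, 378 and 27, with no member among the 200. Val-AAC, Lys-TTT and His-GTG had no reference sequence and were not analysed here, so reads of theirs may stand under another name or unmatched.

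Summed by 5′ end, the picture was the same. Of 1243 ends tested, 106 held members, and edgeR with genotype alone called 0 (0%) higher and 0 (0%) lower. At an unadjusted p under 0.05, 0 were higher and 45 (3.62%) lower, 31 of the latter member ends. DESeq2 called 0 higher and 96 (7.72%) lower, of which 34 held members. With the longest read length as a term, 18 (1.45%) were higher, 6 of them member ends, and 196 (15.8%) lower, 40 of them member ends. The 6 were 3 nuclear and 3 mitochondrial tRNA ends. Both Ago2 CD libraries lay above both wildtype libraries for 72 ends (5.79%), among them 3 of 21 nuclear and 6 of 9 mitochondrial tRNA ends, and below for 205 (16.5%), among them all 40 tested miR-451a ends. These 40 also came in through wildtype counts and are not separate results.

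The place of the 3′ end differed between libraries. Val-CAC reads had a mean length of 28.3 and 28.8 nt in wildtype, against 29.8 and 28.4 nt in Ago2 CD, where the groups overlapped (exact permutation p = 0.667). Of the Val-CAC reads of 18 to 45 nt, those of 30 nt made up 27% in Ago2 CD 1 and 0.547% to 7.09% in the other libraries. The first Gly-CCC end had mean lengths of 30.2 and 29.7 nt in wildtype, against 30.5 and 30.3 nt in Ago2 CD, without overlap (two-sided exact permutation p = 0.33, the smallest that 2 libraries against 2 allow). Over 28 to 36 nt and within both pairs, Ago2 CD was longer for the Val-CAC, Gly-CCC and first Gly-GCC ends, and shorter within the 50-nt pair for the Gly-GCC end with T5G, where wildtype 1 and Ago2 CD 2 had only 37 and 54 reads. Wildtype 1 and Ago2 CD 2 were also close for the first Gly-GCC end, at 30.45 and 30.50 nt from 112 and 277 reads. The unedited 28-nt and 29-nt reads of that end were at 0 in these 2 libraries, so their means lack those reads. For the first Gly-CCC end they stood at 30.24 and 30.33 nt from 37 and 142 reads. Over 18 to 45 nt the first Gly-GCC end was shorter in Ago2 CD within the 50-nt pair, at 26.8 nt in wildtype 1 and 26.5 nt in Ago2 CD 2.

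Shorter reads with the same 5′ ends, which the choice of members did not use, had no direction that held on both scales. Scaled to library reads outside the mir-451a hairpin, Gly-GCC reads of 18 to 27 nt stood at 40.1 and 159 RPM in wildtype 1 and 2, against 126 and 36.4 in Ago2 CD 1 and 2, lower in Ago2 CD within both pairs. The Gly-GCC reads of 28 to 36 nt stood at 11.8 and 751 in wildtype, against 1809 and 18.2 in Ago2 CD. Val-CAC reads of 18 to 27 nt stood at 117 and 192 in wildtype, against 135 and 90.5 in Ago2 CD, again lower in Ago2 CD within both pairs. Gly-CCC reads of 18 to 27 nt stood at 11.3 and 44.2 RPM against 36.1 and 19.8 RPM, higher in Ago2 CD within the 50-nt pair and lower within the 46-nt pair. With all library reads as the base, Gly-GCC reads of 18 to 27 nt stood at 23.99 and 111.4 RPM in wildtype 1 and 2, against 125.3 and 36.3 RPM in Ago2 CD 1 and 2, higher in Ago2 CD within both pairs. On that base Val-CAC stood at 70.3 and 134.4 RPM against 135.2 and 90.3 RPM, higher within the 50-nt pair and nearly equal within the 46-nt pair. The share of 28 to 36 nt among Gly-GCC reads of 18 to 45 nt was 22.8% and 82.5% in wildtype, against 93.5% and 33.4% in Ago2 CD, higher in Ago2 CD within both pairs. For Val-CAC the shares were 59.3% and 79.4% against 91.2% and 76.0%.

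Most mitochondrial tRNA reads stood higher in Ago2 CD within both pairs of libraries. The 12 members came from mt-Tm (5), mt-Tg (2), mt-Tc (2), mt-Tv, mt-Te and mt-Ta, and made up 0.382% (95% Wilson interval 0.350% to 0.417%) and 1.07% (1.03% to 1.12%) of the table in wildtype 1 and 2, against 2.91% (2.87% to 2.96%) and 1.67% (1.60% to 1.73%) in Ago2 CD 1 and 2. By this share both Ago2 CD libraries lay above both wildtype libraries, by 4.36 times in the 50-nt pair and 2.72 times in the 46-nt pair. Scaled to library reads outside the mir-451a hairpin, the 12 reads together stood at 53.6 and 240 RPM in wildtype 1 and 2, against 594 and 162 RPM in Ago2 CD 1 and 2, so that the groups overlapped. On that scale 10 of the 12 reads were higher in Ago2 CD in both pairs. Ago2 CD 1 held 12962 of the 18134 reads of the 12 members and thus weighed most in their choice.

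The mt-Tm reads, from the mitochondrial methionine tRNA at chrM:3845-3913 on the plus strand of GRCm38, dominated this group. The 29-nt read of rank 8 stood at 2338 and 4784 RPM of the table in wildtype 1 and 2, against 13304 and 11282 in Ago2 CD 1 and 2, without overlap, and its log2 fold change was 1.83 ± 2.40 (edgeR adjusted p = 1.00). The 30-nt read of rank 22 stood at 188 and 529 in wildtype, against 4763 and 2103 in Ago2 CD. Its log2 fold change was 3.17 ± 2.75 (edgeR adjusted p = 1.00) with genotype alone and 3.43 ± 1.00 (edgeR adjusted p = 0.0025) with the longest read length as a term. The 28-nt read of rank 15 stood at 624 and 4352 in wildtype, against 6431 and 448 in Ago2 CD and was thus lower in Ago2 CD within the 50-nt pair. The mt-Tc read of rank 175, from the mitochondrial cysteine tRNA, was counted 0, 10, 272 and 11 times, and with the longest read length as a term its log2 fold change was 3.84 ± 1.43 (edgeR adjusted p = 0.029). The other mt-Tc read, of rank 199, was counted 34, 59, 139 and 18 times, and the 2 together stood at 0.77 times wildtype by share of the table in the 50-nt pair and 2.76 times in the 46-nt pair. The mt-Ta read of rank 193, from the alanine tRNA, was counted 7, 6, 226 and 22 times, at 3.02 ± 2.65 (edgeR adjusted p = 1.00). Ranks 175 and 193 reached the cut-off of 249 only through their counts in Ago2 CD 1. Their values are therefore no separate support for a higher level in Ago2 CD.

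Many tRNA reads carried the same few letter changes. Positions are counted from 1 at the 5′ end of the tRNA sequence used, and an edited read is given as its percentage of the pair formed with the unedited read of the same 3′ end. Of the 6 mitochondrial members with edits, 5 changed position 9, where mitochondrial tRNAs often carry a methylated purine. In Ago2 CD 1, the library with enough reads, the edited form made up 76.4% of the pair for mt-Ta with A9 missing (95% Wilson interval 71.2% to 80.8%, from 226 edited and 70 unedited reads), 71.4% for mt-Tv with A9T (67.1% to 75.2%), 67.7% for mt-Tg with A9 missing (63.4% to 71.8%), 63.3% for mt-Tg with A9G (58.6% to 67.9%) and 63.7% for mt-Te with A9T (58.5% to 68.6%). None of their unedited partners was among the 200 reads, so the choice of members favours a high percentage here. The sixth, mt-Tm with G7 missing, followed the kind of library, with 8.26% and 13.6% in the 50-nt libraries and 0.101% and 0.118% in the 46-nt libraries.

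Among nuclear tRNAs, G7 missing was the only change in 3 Gly-GCC members. The read of rank 62 with G7 missing made up 5.57% (95% Wilson interval 4.21% to 7.33%) of its pair in wildtype 2, against 6.25% (5.84% to 6.68%) and 13.97% (9.13% to 20.8%) in Ago2 CD 1 and 2. T5G occurred in 5 Gly-GCC members, and in rank 17 it made up 21.0% of the pair in wildtype 2, 22.4% in Ago2 CD 1 and 12.7% (8.07% to 19.4%) in Ago2 CD 2. Initiator Met-CAT carried G9T in 2 members, at 25.2% (19.8% to 31.7%) in wildtype 2 and 30.3% (28.2% to 32.6%) in Ago2 CD 1 for rank 89. Val-CAC carried G26T in 4 members and G26A in 2, and rank 69 with G26T made up 6.58% (4.74% to 9.05%) in wildtype 2 and 8.85% (8.24% to 9.50%) in Ago2 CD 1, against 2.34% (0.80% to 6.66%) in Ago2 CD 2. Position 26 is a known site of dimethylated guanosine in tRNA. Whether a change marks a modified base, another gene copy or a sequencing error was not tested. A Val-CAC read with an extra C after 27, rank 103, followed the kind of library, with 108 and 351 reads in the 50-nt libraries and 0 and 3 in the 46-nt libraries.

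The miR-451a members, from the gene at chr11:78073170-78073241 on the plus strand of GRCm38, were lower in Ago2 CD within both pairs for 66 of 68 sequences, and the other 2 were at 0 in both 46-nt libraries. Together the 68 reads made up 26.6% (95% Wilson interval 26.4% to 26.8%) and 7.08% (6.97% to 7.20%) of the table in wildtype 1 and 2, against 0.00652% (0.00454% to 0.00937%) and 0.00611% (0.00321% to 0.0116%) in Ago2 CD 1 and 2. Ago2 CD 1 had 29 such reads and Ago2 CD 2 had 9, and 50 and 60 of the 68 sequences were at 0 there. All 68 thus entered the list through their wildtype counts. Apart from the extra or changed letters these are miR-451a reads, and the unchanged 29-nt read was counted 204575, 64981, 47 and 28 times. The read of rank 13, with 1 extra C, was counted 4921, 292, 0 and 0 times, at least 1818-fold lower in Ago2 CD in the 50-nt pair and at least 210-fold lower in the 46-nt pair, with a floor of 3 counts per library. The read of rank 21, with A19T, was counted 2132, 648, 0 and 0 times, at least 788-fold and at least 467-fold lower. DESeq2 gave both an adjusted p of 0.00034, whereas edgeR with genotype alone gave both 0.216.

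The miR-451a changes were spread along the molecule. Of the 39 members with changed letters, 38 carried 1 change, over 18 positions from 1 to 26, and 17 of the 25 distinct changes were to T. Reads changed only in their last 3 letters were dropped by the hairpin match, so changes at the 3′ end could not appear here. The changed read made up a median of 0.364% of its pair in wildtype 1 and 0.261% in wildtype 2. These medians cover only changed reads frequent enough to be members, so the choice of members favours a high percentage. A19T, at 1.03% and 0.987%, was close in both wildtype libraries, while T26G, at 0.00342% and 0.505%, was not. The other 29 members carried 1 (9 reads), 2 (16) or 3 (4) extra letters at the 5′ end. The extra C of rank 13 was present on 2.35% of the pair in wildtype 1 and 0.447% in wildtype 2. The pair of extra letters AG of rank 61 made up 0.00514% and 0.0889%. Reads with 2 extra letters were more frequent in wildtype 2 for 12 of 16 sequences, and the 4 others, among them rank 18, were more frequent in wildtype 1. These 2 libraries share the genotype and differ in kind.

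The remaining members held adapter letters or single transcripts. Adapter letters before a miRNA occurred in 31 reads, 24 of them with miR-144 (chr11:78073005-78073070, plus strand of GRCm38), and the 31 summed to 0, 3906, 12172 and 0 reads. They were present in the 46-nt libraries alone. The 3 reads of adapter letters alone summed to 858, 0, 0 and 3578 reads and were present in the 50-nt libraries alone. Both sets took part in the ranking that chose the 200 reads. Rank 177 matched the adult beta-globin gene Hbb-bs (chr7:103826534-103828096, minus strand of GRCm38) and was counted 24, 43, 171 and 52 times, which was 180 and 209 RPM of the table in wildtype, against 385 and 353 in Ago2 CD, without overlap. Scaled to library reads outside the mir-451a hairpin it stood at 2.53 and 4.68 RPM in wildtype, against 7.83 and 3.42 RPM in Ago2 CD, and the groups overlapped. Ranks 144 and 179 matched the Tmem38b transcript without their last letter and also lay within 2 edits of 48 and 49 of 299 annotated 5S rRNA transcripts, so their RNA of origin was uncertain. They were counted 70, 4, 13 and 249 times and 55, 4, 13 and 216 times, high in the 50-nt libraries.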

How the data were processed

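Small RNA of fetal liver, in 2 wildtype and 2 Ago2 CD libraries, was analysed from the deposited counts. In these the authors list each distinct read sequence with its number of reads. Per the submitters' processing notes reads passed through cutadapt, an adapter trimmer. Its version and settings, and the genome build, are not given in the sources used here. Libraries held 13138065 to 21875540 reads. Reads of 28 to 36 nt without N were kept where neither the read nor the read without its last 1 to 3 nt lay in a GENCODE vM21 hairpin. RNA of origin was found by exact match, then with trimmed ends or 1 mismatch to GENCODE transcripts and tRNA sequences. tRNA sequences came from GENCODE and RefSeq windows or were extended from overlapping reads up to the anticodon, which gave the name. A genome sequence was not used here. After the reads were seen, classes with adapter letters, 1 or 2 edits to a hairpin, extra 5′ letters and up to 3 edits to a tRNA were added.

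All distinct reads, and sums over reads sharing their first 18 nt, were tested with edgeR 4.0.16 (quasi-likelihood, filterByExpr, TMM, R 4.3.3), with DESeq2 1.42.0, limma 3.58.1 and other scalings, filters and designs as alternatives. Python 3.11.15 and SciPy 1.17.1 were used for the rest. On simulated data of 828 reads with a dispersion of 0.05, 96.5% of 86 reads changed by a log2 fold of 2 and 100% of 100 changed by 4 were recovered, and 6 unchanged reads were called. Simulated reads lost to the filter on low counts are not in the 86. The simulation held no difference between the kinds of library. In the data, edgeR with genotype alone left log2 fold changes down to -14.9 uncalled, so these percentages do not carry over to the data. Named reads are the 10 most frequent, the most frequent of each 5′ end with at least 5 members and of each class, and 5 per direction by the smallest unadjusted p among those without overlap. Reads with miR-122, with adapter letters alone, or without match are not printed. The reads of 1 tRNA count in the totals and are not reported here. Other edited reads, and ranks named beside them, were chosen after their values were seen. The members and lists were chosen with earlier results of these data known. Replicate numbers were not used to pair the libraries in the main fits.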

Additional observations from a re-analysis of the deposited data

How the results depend on the processing

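The fits called 0 reads and 0 ends in either direction with the other library sizes, limma voom, both other filters on low counts, other lengths of the 5′ end, reads of 26 to 40 nt, and with near-hairpin reads left out. With the replicate block 0 reads and 0 ends were called. Deviations of same-numbered libraries from their genotype's mean correlated at -0.898 and those of libraries with the same longest read at 0.898. With 2 libraries per genotype these are 1 value with its sign turned, so they cannot show whether the replicate numbers pair animals. With the longest read length as a term, 7 reads were higher and 205 lower (members 7 and 62), and 18 ends higher and 196 lower (members 6 and 40). DESeq2 gave 172 lower reads (62 members) and 96 lower ends (34 members). Leaving out 1 library gave 0 calls of reads, 0 higher ends and 0 to 2 lower ends, the 2 (both member ends) without wildtype replicate 2. The lone library left was assumed to vary like the other genotype.

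The make-up of the list moved with the choice of reads. Nuclear tRNA made up 47.5% with near-hairpin reads left out, 50% of the first 100 reads, 30.8% of the first 500, 31% of the 200 by mean share, 32.5% by the planned matching alone, and 22% to 45.5% leaving out 1 library. Mitochondrial tRNA made up 3% of the first 100 and 2.5% to 7.5% leaving out 1 library. miR-451a reads made up 13% with near-hairpin reads left out, 48.5% by mean share, 0% by the planned matching, and 19.5% to 58% leaving out 1 library. Adapter letters before a miRNA made up 22.5% with near-hairpin reads left out, 21.6% of the first 500, 9% by mean share, 0% by the planned matching, and 9% to 22.5% leaving out 1 library. The lowest nuclear and highest miR-451a values came without Ago2 CD replicate 1. The cause was not tested.

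Over 18 to 45 nt the mean length in Ago2 CD minus wildtype was -2.402 nt for the miR-451a end, -2.885 nt for the end with an extra C and 1.114 nt for Gly-CCC. Over 28 to 36 nt, leaving out 1 library, the difference ranged from -0.151 to 1.263 nt for Val-CAC. It ranged from -0.197 to 1.046 nt for Gly-GCC and -0.819 to 1.114 nt for Gly-GCC with T5G.

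The log2 fold change of rank 1 turned to -0.12 (DESeq2), -0.23 (limma voom) and -0.055 (filter of 50 reads). That of rank 3 turned to -0.38 (DESeq2), -0.16 (library size outside the mir-451a hairpin), -0.30 (filter of 1 read) and -0.097 (near-hairpin reads left out). Leaving out 1 library, the ranges were -14.07 to 14.59 (rank 1), -2.21 to 0.25 (rank 3), -1.68 to 4.78 (rank 4), -1.41 to 4.74 (rank 6), -0.50 to 1.64 (rank 8) and -0.84 to 6.07 (rank 10). The named miR-451a reads and ranks 22, 175 and 193 kept their direction in every fit run. The miR-451a reads and ranks 175 and 193 had entered the list through the genotype where they were high.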
